A study of Mus musculus with 12 samples.

Results

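The contractile genes of myofibroblasts were examined as a set of 10, chosen by name: *Srf*, *Acta2*, *Actg2*, *Tpm1*, *Tpm2*, *Cnn1*, *Tagln*, *Myl9*, *Myh11* and *Des*. Of these, 10 were among the 43280 entries of the table for cells expressing mutant IDH2 and 9 were among the 23930 entries of the table for cells treated with 2-HG, which lists no *Tagln*. RNA-seq was carried out on mouse embryonic fibroblasts (MEF), C57BL/6 cells from embryonic day 13.5 that had become immortal on their own in repeated passage, in 4 groups of 3 libraries. 2MUT cells stably carried a retroviral vector for a mutant form of human IDH2, and Control cells carried the empty vector, so that both had passed through infection and drug selection. 2-HG(+) cells had been kept for 24 h with 300 μM of a membrane-permeant form of 2-HG, the metabolite that mutant IDH2 makes from α-ketoglutarate. 2-HG(-) cells received DMSO according to the sample labels and no treatment according to the methods of the study. The libraries of a group are called triplicates, and nothing states that they came from separate cultures, so that p-values measure the spread between these libraries, which may be technical.

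Myofibroblasts are fibroblasts that have taken on part of the contractile apparatus of smooth muscle, and cultured embryonic fibroblasts on rigid plastic commonly express some of it. Actin filaments containing α-smooth muscle actin are stabilized by tropomyosin, bound by calponin and transgelin, and pulled by myosin II, whose regulatory light chain is switched on by phosphorylation. Transcription of these genes is driven to a large extent by serum response factor (SRF), which binds an element called the CArG box together with myocardin-related cofactors that are released when actin polymerizes, and *Srf* itself is among the genes that SRF drives.

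Promoter windows reaching from 250 bases upstream to 50 bases downstream of the RefSeq start (GRCm38.p6) were at hand for 7 of the 10 genes, *Srf*, *Acta2*, *Tpm1*, *Tpm2*, *Cnn1*, *Myl9* and *Des*. A CArG box was found in 1.63% of all 32851 windows, searched on both strands, and in those of *Srf* and *Myl9* among the 7. *Srf* had a pair of them, CCATATAAGG at 82 bases and CCATAAAAGG at 62 bases upstream of its start. *Myl9* had CCTAATAAGG at 161 bases upstream, and CCTTGTAAGG at 99 bases, in which 1 of the 6 central bases was not A or T. The *Acta2* window held no exact CArG box but such 1-off forms at 84 bases (CCCTATATGG) and 34 bases (CCTTGTTTGG), and 9.98% of all windows held an exact or a 1-off form. This looser form was searched after the windows had been seen. The stretches of the 3 genes are printed because SRF is the transcription factor within the set, with CArG boxes and their 1-off forms in capitals, 5′ to 3′ on the strand of the gene. The *Srf* stretch is chr17:46556176-46556412 on the reverse strand, the *Myl9* stretch is chr2:156775214-156775419 on the forward strand, and the *Acta2* stretches are chr19:34255438-34255467 and chr19:34255388-34255417 on the reverse strand, where GENCODE M21 starts a transcript further upstream and so counts both as exon.
Srf: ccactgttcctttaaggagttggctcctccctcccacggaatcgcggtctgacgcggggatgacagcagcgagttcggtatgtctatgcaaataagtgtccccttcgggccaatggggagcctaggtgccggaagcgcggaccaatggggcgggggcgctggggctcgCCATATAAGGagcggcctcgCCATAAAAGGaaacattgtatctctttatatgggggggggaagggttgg
Myl9: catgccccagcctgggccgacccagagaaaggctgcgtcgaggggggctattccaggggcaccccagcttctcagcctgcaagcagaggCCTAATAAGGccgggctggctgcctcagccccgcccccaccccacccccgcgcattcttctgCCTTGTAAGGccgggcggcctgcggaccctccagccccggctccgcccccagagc
Acta2, 84 bases upstream: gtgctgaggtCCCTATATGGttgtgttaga
Acta2, 34 bases upstream: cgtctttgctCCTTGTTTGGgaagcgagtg
The letters TATAAA were present in 13.6% of all windows and, of the 7, in that of *Srf*, at 38 bases upstream and clear of both CArG boxes. CATTCC, the MCAT element, was present in 14.7% of all windows and in those of *Acta2* and *Tpm1*. None of these motifs was found in the windows of *Cnn1*, *Tpm2* and *Des*. A match of letters is not a binding site, and its absence from these windows says nothing of sites elsewhere.

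The libraries were made with the AmpliSeq method, which amplifies 1 short target per gene. The values are reads per 1000000 reads on genes (RPM), so that a level reflects the amplified target and cannot be compared between genes per length. Reads on genes ranged from 6472439 to 7313602 in the libraries of the 2MUT experiment and from 14959318 to 18363768 in those of the 2-HG experiment, where 3 reads equal 0.41 to 0.464 RPM and 0.163 to 0.201 RPM. The endogenous mouse *Idh2* had 49.6 ± 6.39 RPM in 2MUT, against 77.3 ± 5.54 in Control (SD, n = 3), which checks no label, since the vector carries the human gene. Defining fibroblast markers were present, with *Col1a1*, *Col1a2*, *Vim*, *Pdgfra*, *Pdgfrb*, *Dcn* and *Thy1* at 1 RPM or more in both tables and *Lum* below it in both, as means over 6 libraries. The summed level of the 10 skeletal muscle markers was at most 6.1 RPM in any library and that of the 6 cardiac markers at most 4.1 RPM. *Myocd*, the cofactor particular to smooth and cardiac muscle, was at 0 in Control and 2MUT. Of the 7 markers of pericytes and vascular smooth muscle, which include *Myocd*, *Rgs5* and *Abcc9* were also at 0 there, while *Notch3*, at 139 RPM (Control) and 109.6 RPM (2MUT), and *Mcam*, at 13.4 and 9.71 RPM, were present.

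To see how the contractile genes differed in cells with mutant IDH2, 2MUT was compared with Control. Of the 7 contractile genes that reached a mean level of 1 RPM and so were tested, 6 were lower in 2MUT (*Srf*, *Acta2*, *Tpm1*, *Tpm2*, *Cnn1* and *Myl9*), 0 were higher and *Des* did not pass the threshold, an adjusted p of 0.05 in limma. Among all 11065 genes tested, 17.3% were lower and 16.5% were higher. The count of lower genes was also 6 by edgeR and by DESeq2, and the count of higher genes was 0 by each tool, at an unadjusted p under 0.05 as well. The median log2 fold change over the 7 was -1.0, against 0.01 over all genes. In these bulk libraries, fewer cells expressing a gene and less RNA of it per cell cannot be told apart.

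**Figure D1:**
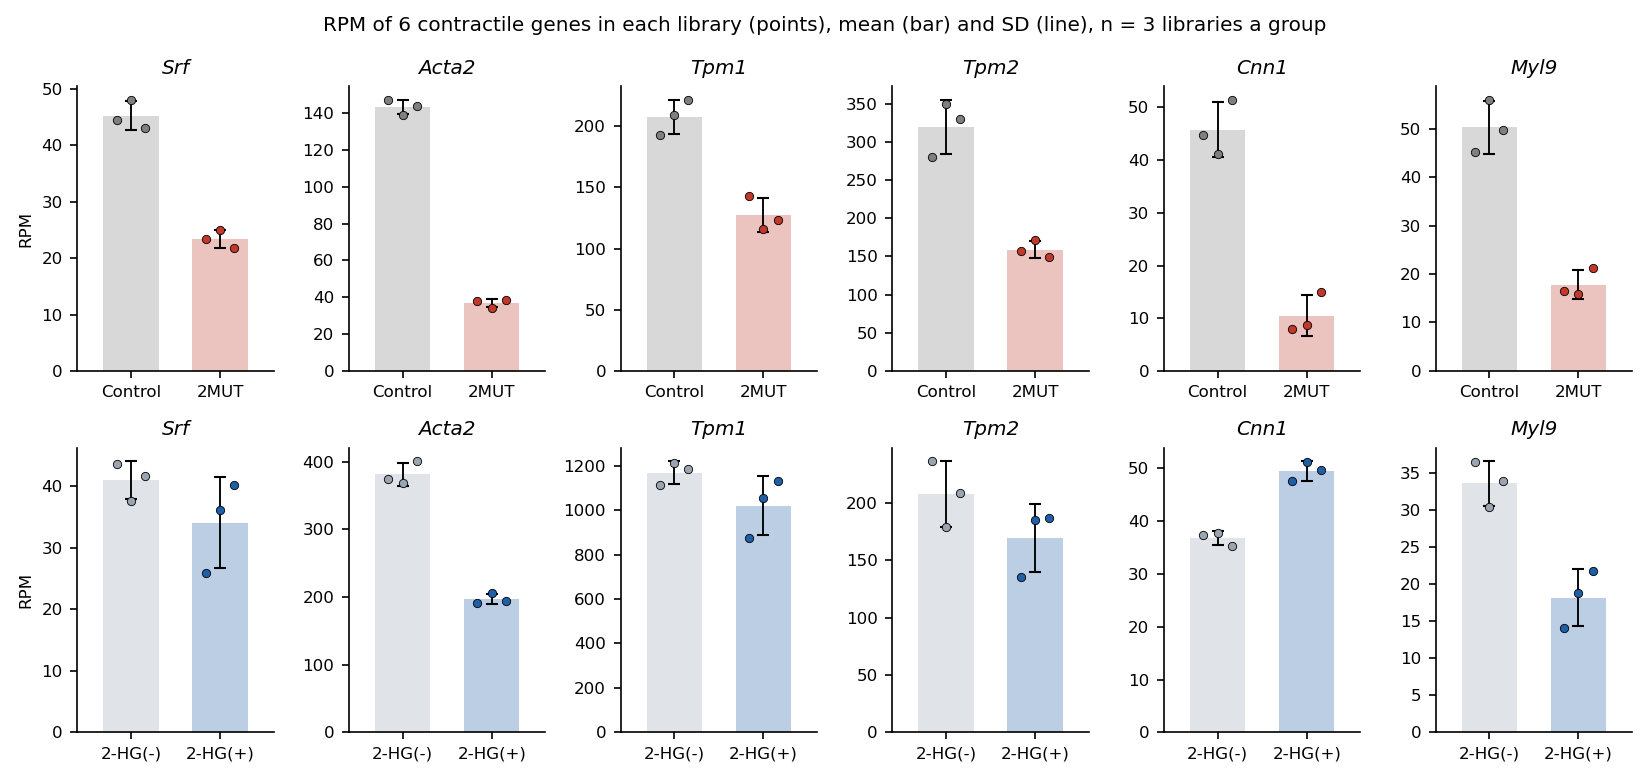
RPM of *Srf*, *Acta2*, *Tpm1*, *Tpm2*, *Cnn1* and *Myl9* (vertical axes, each from 0) in Control and 2MUT (upper panels) and in 2-HG(-) and 2-HG(+) (lower panels), with a point per library, the mean as a bar and the SD as a line, n = 3. In the upper panels every 2MUT library lies below every Control library, and in the lower panels this holds for *Acta2* and *Myl9* while *Cnn1* is the reverse.

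*Srf* (chromosome 17 from 46548329 to 46556175, reverse strand, GRCm38), whose pair of CArG boxes is printed above, was 44.5, 48.1 and 43.1 RPM in the Control libraries and 23.3, 24.9 and 21.7 RPM in 2MUT. The groups did not overlap, and the 2MUT mean was 51.5% of the Control mean. The log2 fold change was -0.93 (SE 0.13, 95% confidence interval -1.21 to -0.65, limma adjusted p = 0.00029).

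*Acta2* (chromosome 19 from 34241090 to 34255590, reverse strand), which encodes α-smooth muscle actin, was 147, 139 and 144 RPM in Control and 37.9, 34.3 and 38.3 RPM in 2MUT. The libraries of each group lay close together, 143 ± 4.19 RPM against 36.8 ± 2.2 RPM (SD, n = 3), with a wide gap between the groups. The 2MUT mean was 25.7% of that of Control, and *Acta2* fell by 1.93 on the log2 scale (SE 0.11, 95% confidence interval -2.17 to -1.70, limma adjusted p = 5.4e-07). Of all genes tested, 0.606% had a lower log2 fold change, and it ranked 20 by p. The coding sequence of *Acta2* is 84.2% identical to that of *Actg2* and 82.8% identical to that of *Actb*, and the sources used here do not give the position of the targets that were amplified, so that whether reads of such relatives were split between entries was not tested. *Actb*, the cytoplasmic β-actin, stood at 6972 ± 252 RPM in Control cells and at 6753 ± 279 RPM in 2MUT, with a log2 fold change of -0.05 (limma adjusted p = 0.69).

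Both tropomyosin genes were lower in 2MUT. *Tpm1* (chromosome 9 from 67022590 to 67049406, reverse strand) was 193, 209 and 221 RPM in Control and 143, 116 and 123 RPM in 2MUT. *Tpm2* (chromosome 4 from 43514711 to 43523765, reverse strand) was 280.4, 349 and 330.3 RPM in Control and 157, 171 and 149 RPM in 2MUT. In neither gene did the groups overlap. *Tpm1* was at 61.4% of the Control mean, with a log2 fold change of -0.70 (SE 0.11, limma adjusted p = 0.00058), and *Tpm2* was at 49.7%, with a log2 fold change of -1.0 (SE 0.11, limma adjusted p = 5.7e-05). Their coding sequences are 65.0% identical.

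*Cnn1* (chromosome 9 from 22099216 to 22109630, forward strand), which encodes calponin 1, an actin-binding protein of the smooth muscle filament, had the lowest log2 fold change of the set. It was 44.7, 41.2 and 51.5 RPM in Control and 7.88, 8.64 and 15.0 RPM in 2MUT. The groups did not overlap, and the library 2MUT 3 stood above the other 2MUT libraries. The mean was 22.9% of that of Control and the log2 fold change was -2.07 (SE 0.21, 95% confidence interval -2.54 to -1.60, limma adjusted p = 4.5e-05). *Cnn1* remained lower with each library left out, with log2 fold changes from -2.33 to -1.91.

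*Myl9* (chromosome 2 from 156775420 to 156781658, forward strand), the regulatory light chain of smooth muscle and non-muscle myosin II, was 45.1, 56.0 and 49.8 RPM in Control and 16.4, 15.8 and 21.3 RPM in 2MUT. The groups did not overlap, and the 2MUT mean was 35.5% of that of Control. The log2 fold change was -1.45 (SE 0.15, 95% confidence interval -1.79 to -1.11, limma adjusted p = 5.4e-05). Its coding sequence is 86.4% identical to that of *Myl12b* and 85.7% identical to that of *Myl12a*, its non-muscle relatives.

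*Des*, *Myh11* and *Actg2* were at low levels. *Des* (chromosome 1 from 75360329 to 75368579, forward strand), which encodes the muscle intermediate filament desmin, was 0.74, 2.42 and 2.87 RPM in Control and 0.309, 2.49 and 1.65 RPM in 2MUT, with overlapping groups and a log2 fold change of -0.31 (95% confidence interval -1.19 to 0.57, limma adjusted p = 0.58). *Myh11* (chromosome 16 from 14194535 to 14291372, reverse strand), the smooth muscle myosin heavy chain, had 5, 1 and 2 reads in the Control libraries and 0, 5 and 3 reads in 2MUT. *Actg2* (chromosome 6 from 83512905 to 83536265, reverse strand), the γ-smooth muscle actin of the gut wall, was at most 0.309 RPM. No difference in *Myh11* or *Actg2* was detectable at this depth.

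*Tagln* (chromosome 9 from 45929619 to 45936058, reverse strand), which encodes transgelin and is among the most used markers of smooth muscle and myofibroblasts, had 1 read in all over the 6 libraries. This entry cannot be read as a level. The table of the 2MUT experiment lists 22835 names that the other table does not, and 90.7% of these had at most 1 read over the 6 libraries, against 29.5% of the names that both tables list. In the lists described here, 6 more genes shared this position, *Actg1*, *Tpm3*, *Tpm4*, *Myl6* and *Myl12b*, which most cells use, and *Prrx1*, and none of the 6 exceeded 1.65 RPM in any library.

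**Figure D2:**
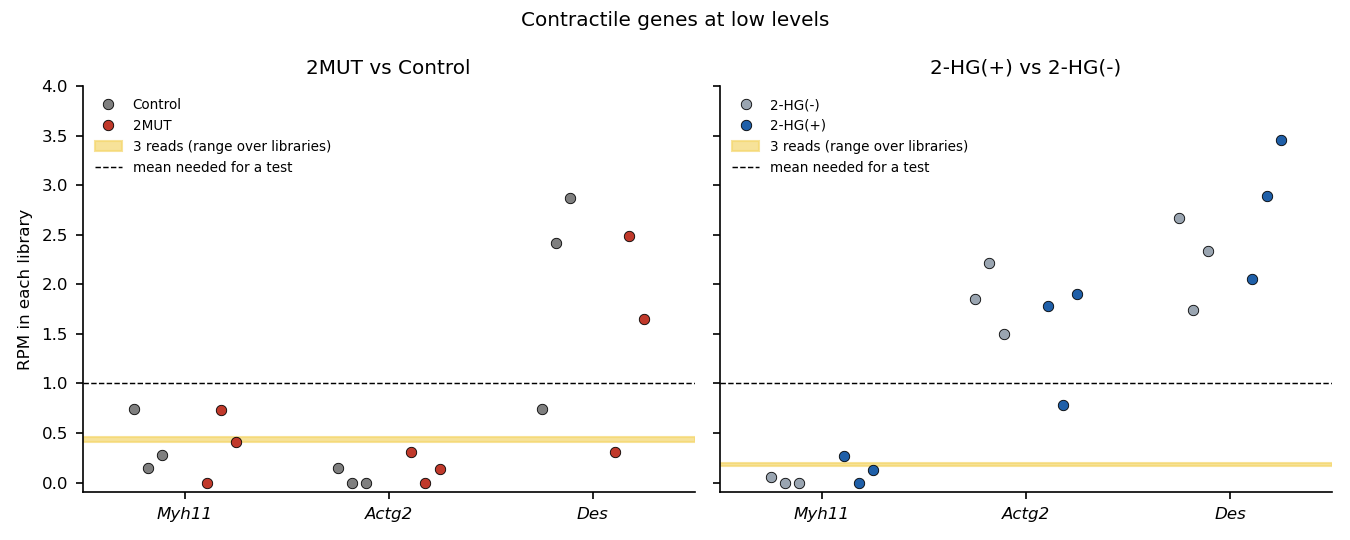
RPM in each library (points, vertical axis) of the 3 contractile genes at low levels, *Myh11*, *Actg2* and *Des*, in both experiments. The band marks the RPM equal to 3 reads and the dashed line the mean of 1 RPM needed for a test, and *Des* in both tables and *Actg2* in the 2-HG table are the only ones of the 3 with a mean above that line.

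Fibroblast markers moved in the same comparison. Of the 7 tested, 6 were lower in 2MUT and 0 were higher, by limma, against 17.3% and 16.5% of all genes, and the summed level of all 8 was 11459 to 12550 RPM in Control and 7881 to 8491 RPM in 2MUT. The log2 fold change was -1.71 for *Thy1* and -1.29 for *Vim* (limma adjusted p = 1.4e-05 and 4.1e-06). Of the 7 markers of pericytes and vascular smooth muscle, 3 were tested and 1 of these, *Notch3*, was lower (log2 fold change -0.34, limma adjusted p = 0.039). The sum of the 7 was 144 to 166 RPM in Control against 109 to 129.9 RPM in 2MUT. Of the 6 cardiac markers only *Tnnt2* was tested, and it was higher, from 0.571 ± 0.158 to 2.81 ± 0.164 RPM (log2 fold change 1.28, limma adjusted p = 0.0017). It had 3 to 5 reads in the Control libraries and 17 to 21 in 2MUT. The others, *Actc1*, *Myh6*, *Nkx2-5*, *Myl7* and *Tnni3*, had means of at most 0.57 RPM, and each mean was lower in 2MUT than in Control. Whether these shifts have a part in the fall of the contractile genes was not tested.

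To see how the same genes changed with the membrane-permeant form of 2-HG, 2-HG(+) was compared with 2-HG(-). Of the 8 contractile genes tested, *Acta2* and *Myl9* were lower, *Cnn1* was higher and 5 did not pass the threshold in limma. Of all 10384 genes tested, 16.7% were lower and 16.1% were higher, so that 2 lower and 1 higher of 8 is close to that background. The counts by edgeR and by DESeq2 were the same. The median log2 fold change over the 8 was -0.25, against -0.02 over all genes.

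*Acta2* was 375, 368 and 401 RPM in 2-HG(-) and 191, 206 and 194 RPM in 2-HG(+). The groups did not overlap, and the mean of 2-HG(+) was 51.7% of that of 2-HG(-). The log2 fold change was -0.95 (SE 0.09, 95% confidence interval -1.15 to -0.75, limma adjusted p = 6e-05), and 4.24% of all genes tested had a lower one. *Myl9* was 36.5, 30.5 and 34.0 RPM in 2-HG(-) and 14.1, 18.8 and 21.8 RPM in 2-HG(+), again without overlap, at 54.1% of the 2-HG(-) mean. It fell by 0.87 on the log2 scale (SE 0.16, 95% confidence interval -1.23 to -0.51, limma adjusted p = 0.0029).

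*Cnn1* was 37.3, 37.8 and 35.2 RPM in 2-HG(-) and 47.5, 51.2 and 49.7 RPM in 2-HG(+), 134% of the 2-HG(-) mean. Every treated library lay above every untreated one, in the opposite order to the 2MUT experiment. The log2 fold change was 0.42 (SE 0.10, 95% confidence interval 0.19 to 0.64, limma adjusted p = 0.011). The call was lost without 2-HG(-) 3 (limma adjusted p = 0.051) and without 2-HG(+) 2 (limma adjusted p = 0.055), with a log2 fold change of 0.39 in either case.

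*Srf* and the tropomyosins did not pass the threshold. *Srf* was 43.7, 37.6 and 41.7 RPM in 2-HG(-) and 25.9, 36.1 and 40.3 RPM in 2-HG(+) (log2 fold change -0.28, 95% confidence interval -0.64 to 0.08, limma adjusted p = 0.21). *Tpm1* was 1111, 1212 and 1183 RPM in 2-HG(-) and 873, 1053 and 1133 RPM in 2-HG(+) (log2 fold change -0.20, 95% confidence interval -0.46 to 0.06, limma adjusted p = 0.21). *Tpm2* was 236, 179 and 208 RPM in 2-HG(-) and 135, 185 and 187 RPM in 2-HG(+) (log2 fold change -0.31, 95% confidence interval -0.64 to 0.03, limma adjusted p = 0.15). In all 3 genes the groups overlapped, and the lowest value belonged to the library 2-HG(+) 1, which was also the lowest for *Myl9*. The intervals reach from a clear decrease to about no change, so that these values do not show that the genes were unaffected.

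*Des* was 2.67, 1.74 and 2.34 RPM in 2-HG(-) and 2.05, 2.89 and 3.46 RPM in 2-HG(+) (log2 fold change 0.22, limma adjusted p = 0.40). *Actg2* was 1.85, 2.21 and 1.5 RPM in 2-HG(-) and 1.78, 0.782 and 1.9 RPM in 2-HG(+) (log2 fold change -0.22, limma adjusted p = 0.45). The groups overlapped in both genes, and *Myh11* had at most 0.264 RPM in any library. Fibroblast markers moved here too, with 4 of the 7 tested lower and *Thy1* higher (log2 fold change 0.71, limma adjusted p = 0.014), against 16.7% and 16.1% of all genes, and a summed level of all 8 of 19738 to 21276 RPM in 2-HG(-) and 13547 to 14771 RPM in 2-HG(+). Of the 7 markers of pericytes and vascular smooth muscle, 3 were tested, 0 were lower and *Mcam* was higher, from 5.18 ± 1.01 to 10.1 ± 1.43 RPM (log2 fold change 0.85, limma adjusted p = 0.0038). *Notch3* (-0.40, limma adjusted p = 0.14) and *Cspg4* (0.18, limma adjusted p = 0.45) did not pass. The sum of the 7 was 32.2 to 45.8 RPM in 2-HG(-) and 37.0 to 40.5 RPM in 2-HG(+). The part of these markers in the changes of *Acta2*, *Myl9* and *Cnn1* was not tested.

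**Figure D3:**
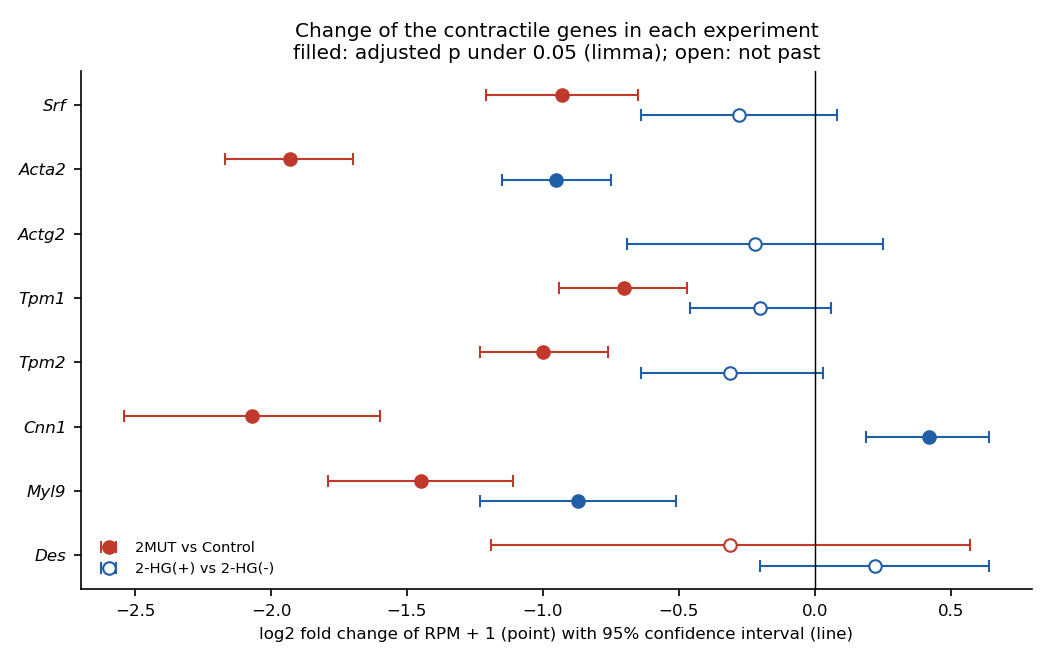
Log2 fold change of RPM + 1 (horizontal axis, point) with its 95% confidence interval (line) for each contractile gene tested, in 2MUT against Control (red) and in 2-HG(+) against 2-HG(-) (blue), filled where the limma adjusted p was under 0.05. *Acta2* and *Myl9* are left of 0 in both experiments, and *Cnn1* is at -2.07 in 2MUT and at 0.42 with 2-HG.

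Whether the contractile genes changed differently in the 2 experiments was tested as the change in 2MUT minus the change with 2-HG, each formed within its own table, over 9594 genes. The comparisons share no library. The difference was negative past the threshold for 5 of the 7 genes tested in both and positive for 0, against 19.5% and 19.9% of all genes, and at an unadjusted p under 0.05 it was negative for 6 and positive for 0. *Cnn1* had a difference of -2.49 (SE 0.26, limma adjusted p = 5.6e-06) and *Acta2* one of -0.99 (SE 0.12, limma adjusted p = 2.8e-05). *Acta2* was thus lower in both experiments, and by more in 2MUT. The differences of *Tpm2* (-0.69, SE 0.20, limma adjusted p = 0.013), *Srf* (-0.65, SE 0.21, limma adjusted p = 0.023) and *Tpm1* (-0.50, SE 0.16, limma adjusted p = 0.022) also passed. Without 2-HG(+) 3 the count was 3, with *Srf* and *Tpm1* no longer past the threshold. The difference of *Srf* was lost as well without 2MUT 3, 2-HG(-) 2 or 2-HG(+) 2 (limma adjusted p from 0.051 to 0.055), and that of *Tpm1* without 2MUT 2 (0.059) or 2-HG(-) 1 (0.05). For *Myl9* the difference was -0.58 (SE 0.23, 95% confidence interval -1.08 to -0.09, limma adjusted p = 0.059), which passed the threshold without 2MUT 3 (0.03) and without 2-HG(+) 1 (0.015), and for *Des* it was -0.53 (SE 0.49, limma adjusted p = 0.42).

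Relatives of the contractile genes, namely the other actins, tropomyosins, calponins, transgelins and myosin chains, were next examined as a list of 16. In 2MUT, 5 of the 7 tested were lower and 0 were higher by limma, edgeR and DESeq2, with a median log2 fold change of -0.51, against 17.3% lower and 16.5% higher of all genes and a median of 0.01. *Tagln2*, a transgelin found in many cell types, fell from 63.6 ± 3.31 to 21.1 ± 3.05 RPM (log2 fold change -1.56, limma adjusted p = 1.6e-05). The calponin *Cnn3* (-0.62) and the non-muscle myosin heavy chains *Myh10* (-0.83) and *Myh9* (-0.51) were lower as well, as was *Myl12a* (-0.49), which the rule for naming genes did not choose. With 2-HG, 3 of the 7 tested were lower, *Cnn2* (-0.62), *Myh9* (-0.52) and *Cnn3* (-0.47), and 0 were higher, by the same 3 tools, against 16.7% and 16.1% of all genes. *Tagln2* was 29.1 ± 2.07 RPM in 2-HG(-) and 35.1 ± 4.05 RPM in 2-HG(+), with overlapping groups (limma adjusted p = 0.14).

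Of 27 other genes of smooth muscle and the actin cytoskeleton that are known as SRF targets, 25 were tested in 2MUT, and 10 were lower, 6 were higher and 9 did not pass in limma (median log2 fold change -0.12), against 17.3% lower and 16.5% higher of all genes. *Vcl*, the adhesion protein vinculin, fell from 356 ± 22.9 to 157 ± 10.2 RPM (-1.18), and *Nexn* (-1.02) and *Fhl1* (-0.97) were lower too. *Synpo2*, an actin-bundling protein of muscle, was higher (1.34). With 2-HG, 7 of 24 were lower and 3 were higher (median -0.21), against the 16.7% and 16.1% of all genes given above. The count of lower genes was 4 without 2-HG(-) 1 or without 2-HG(-) 3. *Mylk*, which encodes the kinase that phosphorylates the myosin light chain, fell from 10.1 ± 0.739 to 3.33 ± 0.257 RPM (-1.36), *Fhl2* (-0.87) and *Cyr61* (-0.55) were lower, and *Ankrd1* was higher (0.91). The call of *Cyr61* was lost without 2-HG(-) 1 (limma adjusted p = 0.057) and without 2-HG(-) 3 (limma adjusted p = 0.054), and its log2 fold change ranged from -0.68 to -0.36 with a library left out.

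Among 14 tested genes for SRF, its cofactors and related regulators, 4 were lower and 2 were higher in 2MUT, and 5 were lower and 1 was higher with 2-HG, by limma. The shares of all genes were 17.3% lower and 16.5% higher in 2MUT and 16.7% and 16.1% with 2-HG. Both counts of higher genes thus lie at or below the background, and both counts of lower genes above it. *Srf*, already counted among the contractile genes, is 1 of the 4 lower in 2MUT. Without 2MUT 1 or without 2MUT 3, only 2 were lower in 2MUT. *Klf4*, a factor known to repress smooth muscle genes, rose by 1.28 in 2MUT and by 0.75 with 2-HG on the log2 scale. *Csrp2*, a smooth muscle LIM protein that works with SRF, fell by 1.42 and by 0.68. In 2MUT *Mef2c* was lower (-1.09), a call that was lost without 2MUT 1 (-0.82, limma adjusted p = 0.061) and without 2MUT 3 (-0.98, limma adjusted p = 0.056). With 2-HG *Foxo4* was lower (-0.71). *Mkl1*, the gene of the myocardin-related factor MRTF-A, was 103 ± 8.42 RPM in 2-HG(-) and 69.6 ± 8.27 RPM in 2-HG(+) (-0.57, limma adjusted p = 0.0052), and it was higher in 2MUT (0.75).

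TGF-β is the classical inducer of the myofibroblast state. Of 14 genes for its ligands, receptors, SMADs and their partners, 7 were higher and 1 was lower in 2MUT, and 1 was higher and 4 were lower with 2-HG, by limma, against 16.5% higher and 17.3% lower of all genes in 2MUT and 16.1% and 16.7% with 2-HG. By edgeR and by DESeq2, 3 were higher with 2-HG. *Smad6*, *Smad7* and *Ski*, which restrain the signal, are among the 7, so the count gives no single direction for TGF-β signalling. In 2MUT *Smad6* (1.43), *Tgfb2* (1.41), *Thbs1* (0.75) and the receptor *Tgfbr2* (0.55) were higher. With 2-HG *Thbs1*, whose product activates latent TGF-β, fell from 611 ± 28.2 to 164 ± 24.3 RPM (-1.90), *Ski* (-0.80) and *Tgfbr2* (-0.57) were lower, and *Skil* was higher, from 18.2 ± 0.96 to 24.8 ± 0.212 RPM (0.43, limma adjusted p = 0.015). The call of *Skil* was lost without 2-HG(-) 3 (limma adjusted p = 0.068) and without 2-HG(+) 2 (limma adjusted p = 0.061).

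**Figure D4:**
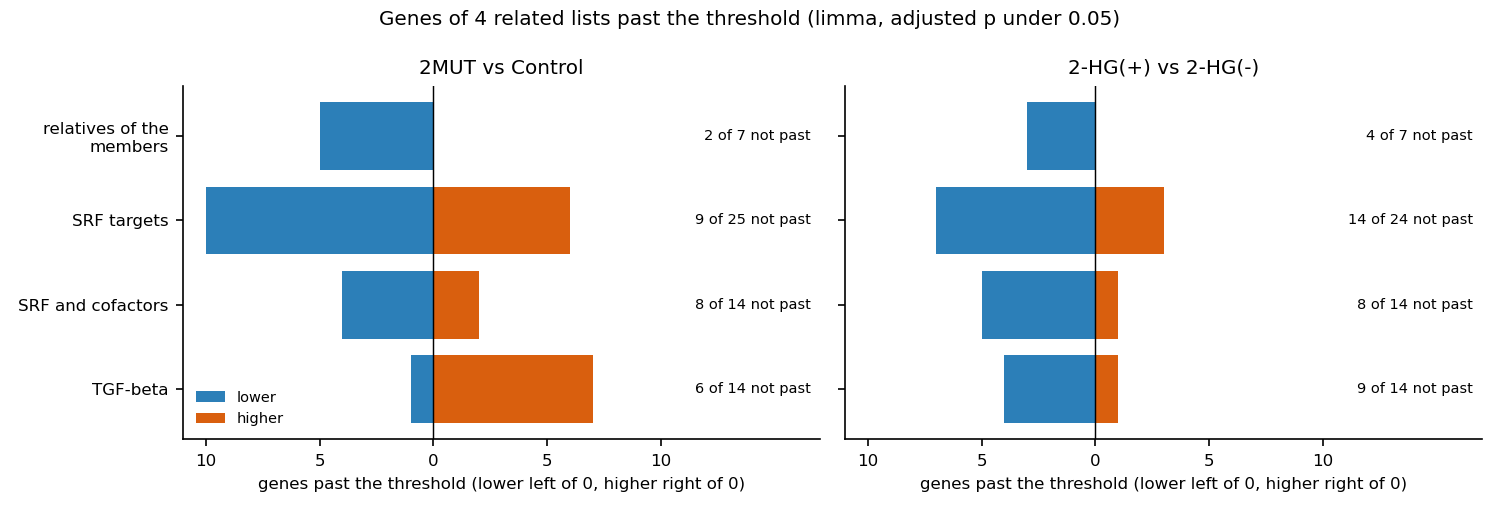
Number of genes of each of 4 lists past the threshold (limma adjusted p under 0.05), lower to the left and higher to the right of 0, in 2MUT against Control (left panel) and 2-HG(+) against 2-HG(-) (right panel), with the number not past of those tested written beside. The relatives of the contractile genes have bars on the lower side in both panels and none on the higher side, while the TGF-β list has 7 higher in the left panel and 1 in the right.

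Of 58 list genes tested in both experiments, 17 were past the threshold in both, 11 of them in opposite directions and 6 in the same direction. Of all 9594 genes, 13.9% were past it in both, 9.38% in opposite directions and 4.57% in the same direction, so that opposite directions were the more frequent among all genes too. For each of the 11 the difference between the experiments was past the threshold in limma. Choosing genes by opposite changes past the threshold all but fixes that outcome, so it adds no support. All 17 are named here whether or not the rule for naming genes chose them. *Mylk*, *Mkl1*, *Fhl2*, *Itga1*, *Cyr61*, *Tgfbr2*, *Smad6*, *Ski* and *Thbs1* were higher in 2MUT and lower with 2-HG. *Ankrd1* and *Csrp1* were lower in 2MUT and higher with 2-HG, as was the contractile gene *Cnn1*. *Cnn3*, *Myh9*, *Wdr1*, *Mef2c* and *Csrp2* were lower in both, as were *Acta2* and *Myl9*, and *Klf4* was higher in both.

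**Figure D5:**
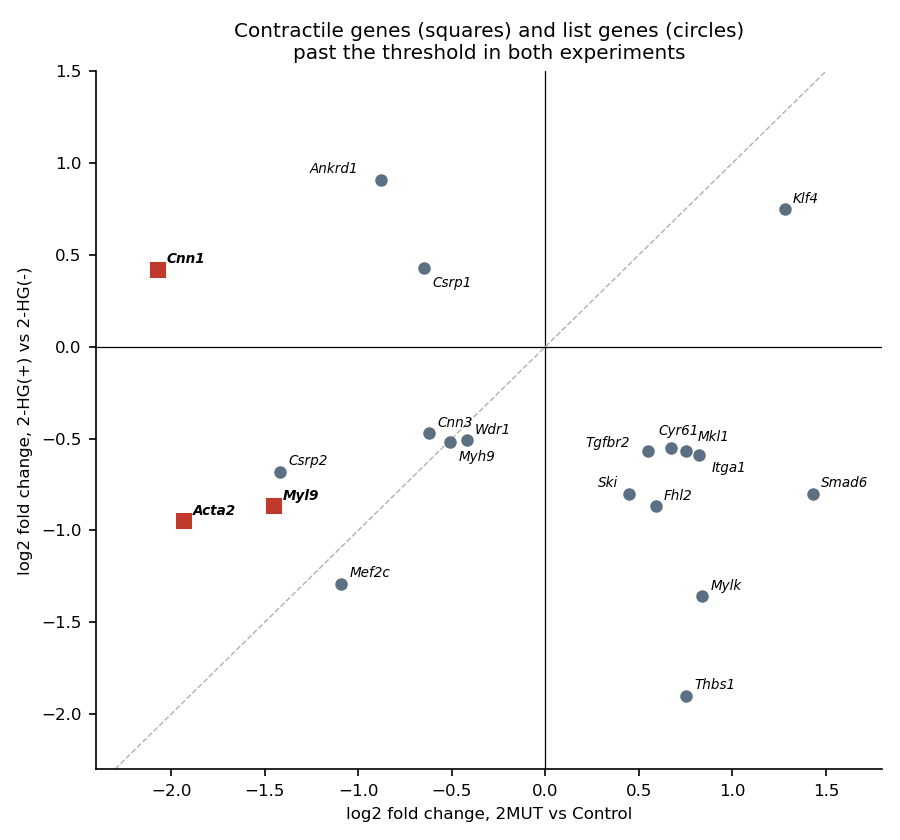
Log2 fold change in 2MUT against Control (horizontal axis) and in 2-HG(+) against 2-HG(-) (vertical axis) for the 3 contractile genes (squares) and 17 list genes (circles) past the threshold in both experiments, with equal change on the dashed line. *Acta2* and *Myl9* lie at the lower left, and *Cnn1* lies at the upper left with 2 list genes.

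The likeness of each gene's pattern to that of *Acta2* and of *Srf* was described by Pearson's r of log2(RPM + 1) over the 12 libraries, after centring on the mean of each table, among 9593 other genes. Since the libraries form 4 groups, r mainly reflects the differences between groups, and genes are measured in the same libraries. The 5 genes most like *Acta2* were *Adamts1* (r = 0.995), *Col11a1* (0.994), *Zfp354c* (0.99), *Psmb8* (0.986) and *H2-K1* (0.984). Among the contractile genes, *Myl9* had an r of 0.96 with *Acta2* (rank 24), *Tpm1* 0.912 (rank 149), *Tpm2* 0.907 (rank 166), *Srf* 0.905 (rank 172), *Cnn1* 0.77 (rank 635) and the low *Des* 0.124 (rank 4026). The gene most like *Srf* was *Tpm2* (0.98), followed by *Zfpm2* (0.977), *Slc44a2* (0.967), *Itpkc* (0.966) and *Edc4* (0.965). Of the other contractile genes, *Myl9* had an r of 0.927 with *Srf* (rank 35), *Tpm1* 0.924 (rank 37), *Acta2* 0.905 (rank 73), *Cnn1* 0.762 (rank 610) and *Des* 0.309 (rank 3094).

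Levels in the control groups of the tables can be set side by side only, because the tables come from separate experiments that share no library and differ in depth. They also list different entries, though names in both hold 97.5 to 97.9% of the reads in the 2MUT experiment and 98.7 to 98.8% in the 2-HG experiment. *Acta2* was 143 ± 4.19 RPM in Control and 381 ± 17.8 RPM in 2-HG(-), and *Tpm1* was 207 ± 14.1 and 1169 ± 52.1 RPM (SD, n = 3). *Srf* was 45.3 ± 2.61 and 41.0 ± 3.1 RPM, and *Cnn1* was 45.8 ± 5.28 and 36.8 ± 1.4 RPM. *Acta2* in 2-HG(+), at 197 ± 8.13 RPM, was thus above its value in Control. No test was made between the tables.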

How the data were processed

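The reads were aligned by the authors to the AmpliSeq mouse transcriptome reference with TMAP and assigned to genes by the AmpliSeqRNA plug-in. The genome build is not given in the sources used here. Each deposited table holds RPM, reads on a gene per 1000000 reads on genes, with no further normalization found. Dividing by the RPM that 1 read adds gave a whole number, within 0.1 read, for 100% of the values, and the reads so recovered served for the count tests. No column of the tables was without a condition.

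Values were put on the scale log2(RPM + 1), and each comparison was tested, two-sided, by limma (version 3.58.1, R version 4.3.3) using a trend of the variance with the mean. Genes entered if their mean over the 6 libraries reached 1 RPM. P-values were adjusted by Benjamini-Hochberg over all of them, with a threshold of 0.05. Fold changes are on the log2(RPM + 1) scale, which understates the change of low genes. The difference between the experiments was a contrast over 12 libraries. edgeR 4.0.16 and DESeq2 1.42.0 on the recovered reads called 3764 and 3748 genes in the 2MUT comparison and 3546 and 3666 in the 2-HG comparison, against 3741 and 3405 by limma.

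The 10 genes and the 4 lists were chosen with earlier results of these data known. From each list and comparison, at most 4 genes are named, those with the largest absolute log2 fold change among those past the threshold whose higher group averaged 10 RPM or more and whose groups did not overlap. Idh2, the markers and the 5 genes of highest likeness to Acta2 and to Srf are also named. Gene positions and coding sequences are from GENCODE M21 (GRCm38), and identity was taken from global alignments of the longest coding sequences with Biopython 1.88. Promoter windows are from RefSeq (GRCm38.p6). The confidence intervals of fold changes and of their differences come from the limma fits, so that they measure the spread between libraries. PCR copies were not told apart. Quantitative PCR, protein and HCT116 data of the study were not analysed here, and some genes examined alongside are not reported.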

Additional observations from a re-analysis of the deposited data

Results flagged for a closer look

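The change in 2MUT differed from the change with 2-HG, past the threshold in limma over 9594 genes, for 5 contractile genes. The difference in log2 fold change, 2MUT minus 2-HG, was -2.49 for *Cnn1*, which was lower in 2MUT and higher with 2-HG. It was -0.99 for *Acta2*, lower in both. It was -0.69 for *Tpm2*, -0.65 for *Srf* and -0.50 for *Tpm1*, which were lower in 2MUT and did not pass the threshold with 2-HG.

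Of the list genes, 11 were past the threshold in both experiments in opposite directions, a choice that all but fixes the test of their difference. The same difference was 2.64 for *Thbs1*, 2.23 for *Smad6*, 2.20 for *Mylk*, 1.45 for *Fhl2*, 1.40 for *Itga1*, 1.31 for *Mkl1*, 1.25 for *Ski*, 1.21 for *Cyr61* and 1.11 for *Tgfbr2*, all higher in 2MUT and lower with 2-HG. It was -1.79 for *Ankrd1* and -1.08 for *Csrp1*, both lower in 2MUT and higher with 2-HG. Groups of 3 libraries were not tested for outlying libraries. Among the list genes, picked after their values were seen, *Cnn2* was 569.8, 512.0 and 41.6 RPM and *Pdlim7* was 313, 308 and 45.4 RPM in the Control libraries, with the library Control 3 far below the others, and *Palld* was 607, 289.6 and 626 RPM in 2-HG(+).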

How the results depend on the processing

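The 6 lower contractile genes of 2MUT kept their call under all 10 other settings and with each library left out. With 2-HG, *Acta2* and *Myl9* kept theirs likewise, while the number of higher genes was 0 to 1 with a library left out, as *Cnn1* lost its call without 2-HG(-) 3 or 2-HG(+) 2. The same-numbered libraries did not deviate together (r from -0.46 to 0.07), so the numbers do not pair them. With the replicate number as a block, 0 contractile genes were higher with 2-HG (*Cnn1* log2 fold change 0.42, adjusted p = 0.05) and 2503 genes were called in all, against 3405. The block changed no other call of a contractile gene, and *Skil* lost its call with it (0.43, adjusted p = 0.063). The difference between the experiments was past the threshold for 3 to 6 genes with a library left out. With a library left out, log2 fold changes ranged from -0.66 to 0.10 for *Des* in 2MUT and from -0.35 to 0.00 for *Actg2* with 2-HG, both low in reads. With 2-HG they ranged from -0.41 to -0.10 for *Srf*, from -0.28 to -0.10 for *Tpm1* and from -0.41 to -0.15 for *Tpm2*, none past the threshold, and from 0.09 to 0.37 for *Des*. The difference of *Myl9* between the experiments passed the threshold with quantile normalization (adjusted p = 0.026) and median-of-ratios scaling (0.031).

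The unmoderated test called 1021 genes higher and 1223 lower in 2MUT and 1098 and 1139 with 2-HG. The lists were rerun under the same settings after seeing the data. In 2MUT, the unmoderated test left 3 SRF targets and 4 TGF-β genes higher and 2 cofactors lower, no filter gave 1 higher relative, and no trend gave 0 lower TGF-β genes. With 2-HG, SRF targets called lower were 4 at a filter of 10 RPM and 2 unmoderated, and 0 cofactors were higher unmoderated. TGF-β genes called higher were 3 with median-of-ratios scaling, edgeR and DESeq2, 2 with quantile normalization and 0 with the block. With a library left out, the counts were 2 to 4 lower cofactors and 0 to 1 lower TGF-β genes in 2MUT, and 0 to 1 higher relatives, 4 to 7 lower SRF targets and 0 to 1 higher TGF-β genes with 2-HG. The causes were not tested. The unmoderated test also lost the calls of *Mef2c*, *Myh10*, *Synpo2* and *Tgfb2* in 2MUT and of *Cyr61*, *Fhl2*, *Klf4*, *Myh9* and *Ski* with 2-HG. Depth limits *Myh11*, *Actg2* and *Des*.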
